A study of Mus musculus with 4 samples.

Results

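The genes described here are 30 genes of glycolysis, of lactate and pyruvate handling and of sugar and lactate transport, among the 55450 gene rows of 4 single-cell libraries from mouse brain and intestine. The list was chosen from the pathway and from earlier results of these data, which had shown a library difference of Ldhb in the brain and differences of isoform between cell types. What chose the genes is therefore given as a description, and no test was made. All 30 symbols were found. Each gene was followed over the cell types of both tissues and over both libraries of each tissue.

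The NPs brain library came from wild-type mice given NPs for 2 months and the untreated brain library from untreated wild-type mice. The NPs intestinal library came from wild-type mice given NPs for 1 week and the untreated intestinal library from untreated wild-type mice. The labels do not spell out NPs and give no number of animals. They name BALB/c mice of 5 weeks and ICR mice of 6 months without saying which strain gave which library, so a part of strain or age in any difference cannot be told apart from treatment. Each group was 1 library of 10x Genomics 3' v3 type, so the spread between replicates is unknown and no p-value is given. Values in parentheses after a level, share or ratio are exact 95% intervals for the error of counting alone. A unique molecular identifier (UMI) stands for 1 captured transcript, and levels are given as CPM, the UMIs of a gene per 1000000 UMIs of a cell class in a library. Counts of 3' ends do not grow with transcript length, and the levels of different genes were compared without further correction. Differences in capture between genes were not measured, so shares and sums over genes describe counted UMIs.

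Glycolysis splits glucose to pyruvate in 10 enzyme steps, some of which are served by several genes. Lactate dehydrogenase turns pyruvate to lactate and back; the subunit encoded by Ldha is known for favouring lactate formation and the subunit encoded by Ldhb for favouring lactate use. Pyruvate enters mitochondria and is used by pyruvate dehydrogenase, which the kinases Pdk1, Pdk2 and Pdk4 switch off. Lactate crosses membranes through the monocarboxylate transporters Slc16a1, Slc16a3 and Slc16a7. In the brain, astrocytes are known as glycolytic cells that pass lactate to neurons, and in the colon the epithelium is known to burn butyrate as its main fuel. Hif1a encodes the oxygen-regulated subunit of a transcription factor that binds ACGTG or GCGTG and activates many glycolytic genes.

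The 250 bases before the start of 3 members are shown, the lactate dehydrogenase pair whose balance differed between the brain libraries in microglia and Eno3, the member with the lowest NPs over untreated ratios in the intestine. They are RefSeq promoters of build GRCm38.p6, written 5′ to 3′ on the strand of the gene, with matches to ACGTG or GCGTG on either strand in capitals. The Ldhb window lies at chr6:142507958-142508207 on the minus strand, the Ldha window, the more upstream of 2, at chr7:46845554-46845803 on the plus strand, and the Eno3 window at chr11:70656926-70657175 on the plus strand.
Ldhb: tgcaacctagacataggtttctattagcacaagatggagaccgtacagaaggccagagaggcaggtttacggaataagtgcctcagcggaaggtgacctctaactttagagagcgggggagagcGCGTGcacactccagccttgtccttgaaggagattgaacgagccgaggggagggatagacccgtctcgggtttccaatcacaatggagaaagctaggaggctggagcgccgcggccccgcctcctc
Ldha: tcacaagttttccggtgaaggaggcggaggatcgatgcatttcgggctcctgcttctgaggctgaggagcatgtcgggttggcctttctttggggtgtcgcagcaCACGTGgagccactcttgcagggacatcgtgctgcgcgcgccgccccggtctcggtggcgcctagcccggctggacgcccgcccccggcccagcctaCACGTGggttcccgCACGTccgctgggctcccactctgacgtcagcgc
Eno3: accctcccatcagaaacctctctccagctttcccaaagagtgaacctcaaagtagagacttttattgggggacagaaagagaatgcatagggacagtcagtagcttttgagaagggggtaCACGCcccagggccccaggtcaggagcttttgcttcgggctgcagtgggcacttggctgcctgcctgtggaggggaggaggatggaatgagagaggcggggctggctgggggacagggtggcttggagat
The Ldha window held 5 matches to ACGTG, which count both strands of the palindrome at 2 places, and the Ldhb and Eno3 windows held 1 match to GCGTG each. The Ldha window also held 25 CpG pairs, against 14 in the Ldhb and 3 in the Eno3 window. Over windows from 250 bases before to 50 bases after the start, 28 of the 30 members had 42 windows, of which 76.2% held either motif, against 43.8% of all 32851 windows. Alternative starts of 1 gene overlap in part, and a match of 5 letters is a description and no binding site. Both motifs hold a CpG pair, and the CpG content of the 32851 windows was not compared with that of the member windows.

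Cell classes were rebuilt from marker genes, with the 30 members left out of the clustering, and their names mean likeness to these markers. In the brain, 9 classes held at least 50 cells in both libraries. Microglia-like cells numbered 6554 in the NPs and 5315 in the untreated library, and astrocyte-like cells 4024 and 4166. The others were endothelial, T cell, neuroblast, neutrophil and monocyte-like cells and 2 clusters left without a name, cluster 17 (led by Sox11 and Top2a) and cluster 22 (led by Vtn and Acta2). The cells named monocytes were also led by Cd74 and H2-Aa, genes of antigen presentation. Neurons fell under 50 cells in both libraries. The brain libraries held 63889853 UMIs with NPs and 70594935 untreated, and the intestinal libraries 127772838 with NPs and 116394801 untreated. Library pairs shared 35 to 104 cell barcodes.

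The intestinal libraries stood apart from each other. In the NPs library 46.5% of barcodes lay above the limit of 20% mitochondrial UMIs, against 16.7% in the untreated library. Absorptive epithelium-like cells came from clusters 0 and 10 in the NPs library, led by Reg3b and Cyp2c55, and from clusters 14, 15 and 23 in the untreated library, which had Ly6g, Atp12a and Sprr2a3 among their leading genes. Goblet-like cells came from cluster 2 in the NPs and cluster 8 in the untreated library. The median depth of absorptive cells was 9248 UMIs with NPs and 2058 untreated. Hoxb13 was among the leading genes of clusters 4 and 14, mostly or wholly untreated, and Hoxb8 among those of cluster 1, mostly NPs. Comparisons within intestinal epithelium are therefore comparisons of different clusters. The part of cluster make-up, depth and stretch of intestine in them was not tested.

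**Figure D1:**
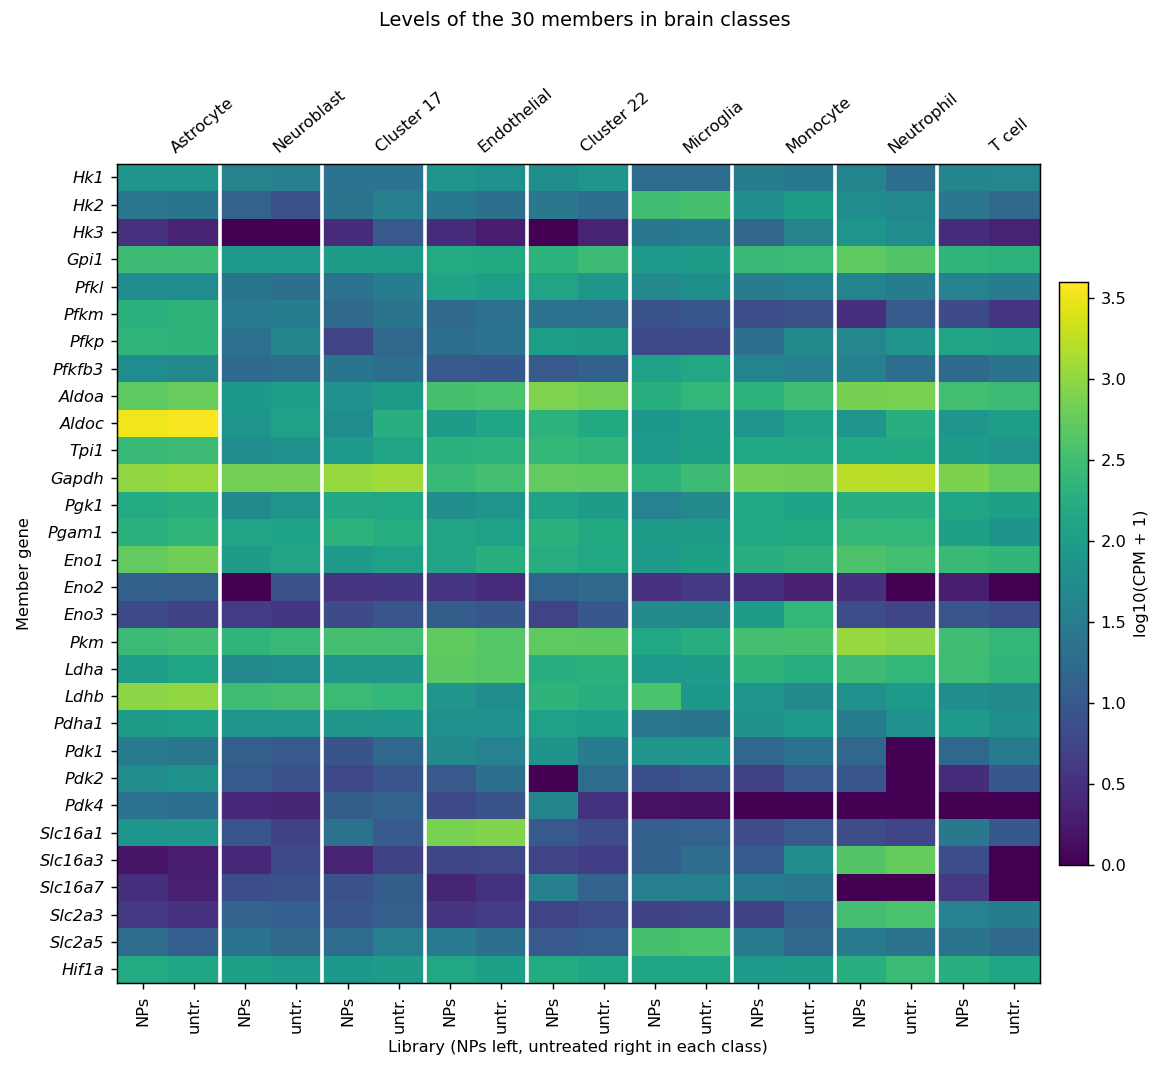
Levels of the 30 members as log10(CPM + 1) in the 9 brain classes, with the NPs library left and the untreated library right in each class. Aldoc and Ldhb stand out in astrocytes, Hk2 and Slc2a5 in microglia, Slc16a1 in endothelial cells, and Slc16a3 and Slc2a3 in neutrophils, in both libraries, and the Ldhb row changes shade between the libraries in microglia.

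The cell types of the brain used different genes for the same steps, and both libraries gave the same leading gene for hexokinase, the first step, in all 9 classes. In microglia Hk2 had 311 CPM with NPs and 351 CPM untreated and made up 87.6% (87.0 to 88.2%) and 87.8% (87.2 to 88.4%) of hexokinase UMIs. In astrocytes Hk1, the hexokinase of most brain cells, led with 74.8 CPM with NPs and 75.5 CPM untreated, 73.1% (71.1 to 75.0%) and 74.9% (73.0 to 76.7%) of the family. Hk3, known from white blood cells, was at 77.6 CPM with NPs and 56.1 CPM untreated in neutrophils, 44.7% (33.9 to 55.9%) and 46.2% (26.6 to 66.6%) of the family from 38 and 12 UMIs. Hexokinase of choroid plexus epithelium, which only the untreated library held in number, was 96.4% Hk1 (94.5 to 97.8%). Cluster 17 was mixed, with 48.7% Hk2 and 47.4% Hk1 with NPs and 53.2% Hk2 and 33.3% Hk1 untreated.

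Microglia and astrocytes also differed in phosphofructokinase, which commits sugar to glycolysis, and in aldolase, which splits it. Pfkl, the liver-type phosphofructokinase, gave 79.2% (77.4 to 81.0%) of family UMIs in microglia with NPs and 81.9% (80.2 to 83.5%) untreated. Astrocytes shared the step between Pfkm, the muscle type, at 199 CPM with NPs and 217 CPM untreated, and Pfkp, the platelet type, at 236 CPM and 220 CPM. Aldoc, the brain aldolase, was the most abundant member in any compared class, with 3291 CPM with NPs and 3677 CPM untreated in astrocytes, where it made up 86.8% (86.5 to 87.0%) and 86.4% (86.2 to 86.7%) of aldolase UMIs. Aldoa led in microglia, with 187 CPM with NPs and 244 CPM untreated. In microglia Aldoc stood at 2.53% of its astrocyte level with NPs and 2.81% untreated, while the summed level of 7 astrocyte markers stood at 3.72% and 3.33% of theirs.

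Enolase was mostly Eno1, which in astrocytes made up 97.0% of enolase UMIs with NPs and 97.7% untreated. Microglia and monocytes differed from this. Eno3, known as the muscle enolase, made up 35.0% (33.6 to 36.4%) with NPs and 30.8% (29.4 to 32.1%) untreated in microglia. In monocytes Eno3 had 94.1 CPM with NPs and 238 CPM untreated, 33.8% (25.9 to 42.4%) and 52.3% (47.2 to 57.3%) of enolase. Eno2, the neuronal enolase, reached its highest level, 28.8 CPM, in untreated choroid plexus epithelium. Neurons were too few to be measured. Tpi1, which interconverts the products of aldolase, had 270 CPM with NPs and 290.5 CPM untreated in astrocytes, its highest class. Gapdh, the dehydrogenase of the next step, had 1691 CPM with NPs and 1642 CPM untreated in neutrophils, against 212 CPM and 291 CPM in microglia. Pkm, which makes pyruvate, had 1121 CPM with NPs and 936 CPM untreated in neutrophils, against 137 CPM and 172 CPM in microglia.

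Summed over the 17 enzyme genes of the 10 steps, astrocytes held 7146 CPM with NPs and 7930 CPM untreated, neutrophils 5361 CPM and 5058 CPM, and microglia 1474 CPM and 1788 CPM. Microglia were the lowest of the 9 classes in both libraries. Aldoc gave 3291 CPM of the astrocyte sum with NPs and 3677 CPM untreated.

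Transporters were each high in 1 or few classes. Slc16a1, the lactate transporter MCT1, had 757 CPM with NPs and 835 CPM untreated in endothelial cells, where it made 99.2% and 99.1% of the 3 monocarboxylate transporters. Slc16a3, the lactate exporter MCT4, had 433 CPM with NPs and 566 CPM untreated in neutrophils, and Slc2a3, the glucose transporter GLUT3, 329 CPM and 374 CPM there. Slc2a5, the fructose transporter and a known microglial gene, had 353 CPM with NPs and 384 CPM untreated in microglia. In the other 8 classes Slc2a5 lay between 9.02 and 30.7 CPM with NPs and between 10.7 and 33.3 CPM untreated. Microglia also held the highest levels of Pfkfb3, which makes an activator of phosphofructokinase, at 112 CPM with NPs and 136 CPM untreated. Pdk1 gave 91.6% of the kinase UMIs in microglia with NPs and 90.1% untreated, whereas in astrocytes Pdk2 gave 52.7% and 59.0%.

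The leading lactate dehydrogenase gene was the same in both libraries in 7 of the 9 classes, the exceptions being microglia and cluster 22, where the Ldhb share was 53.9% (43.0 to 64.6%) with NPs and 47.8% (42.3 to 53.4%) untreated. Ldhb had 926 CPM with NPs and 1020 CPM untreated in astrocytes, 90.2% (89.7 to 90.6%) and 88.8% (88.4 to 89.1%) of lactate dehydrogenase UMIs. Neuroblasts were alike, with 86.4% (81.1 to 90.6%) Ldhb with NPs and 86.3% (81.7 to 90.0%) untreated. In the untreated library alone, choroid plexus epithelium had 1109 CPM and oligodendrocytes 283 CPM of Ldhb. Ldha led in endothelial cells, with 485 CPM with NPs and 443 CPM untreated, and made up 86.7% and 88.9% of the pair there. T cells, neutrophils and monocytes were also led by Ldha, with 74.6% to 84.4% with NPs and 74.3% to 81.8% untreated.

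**Figure D2:**
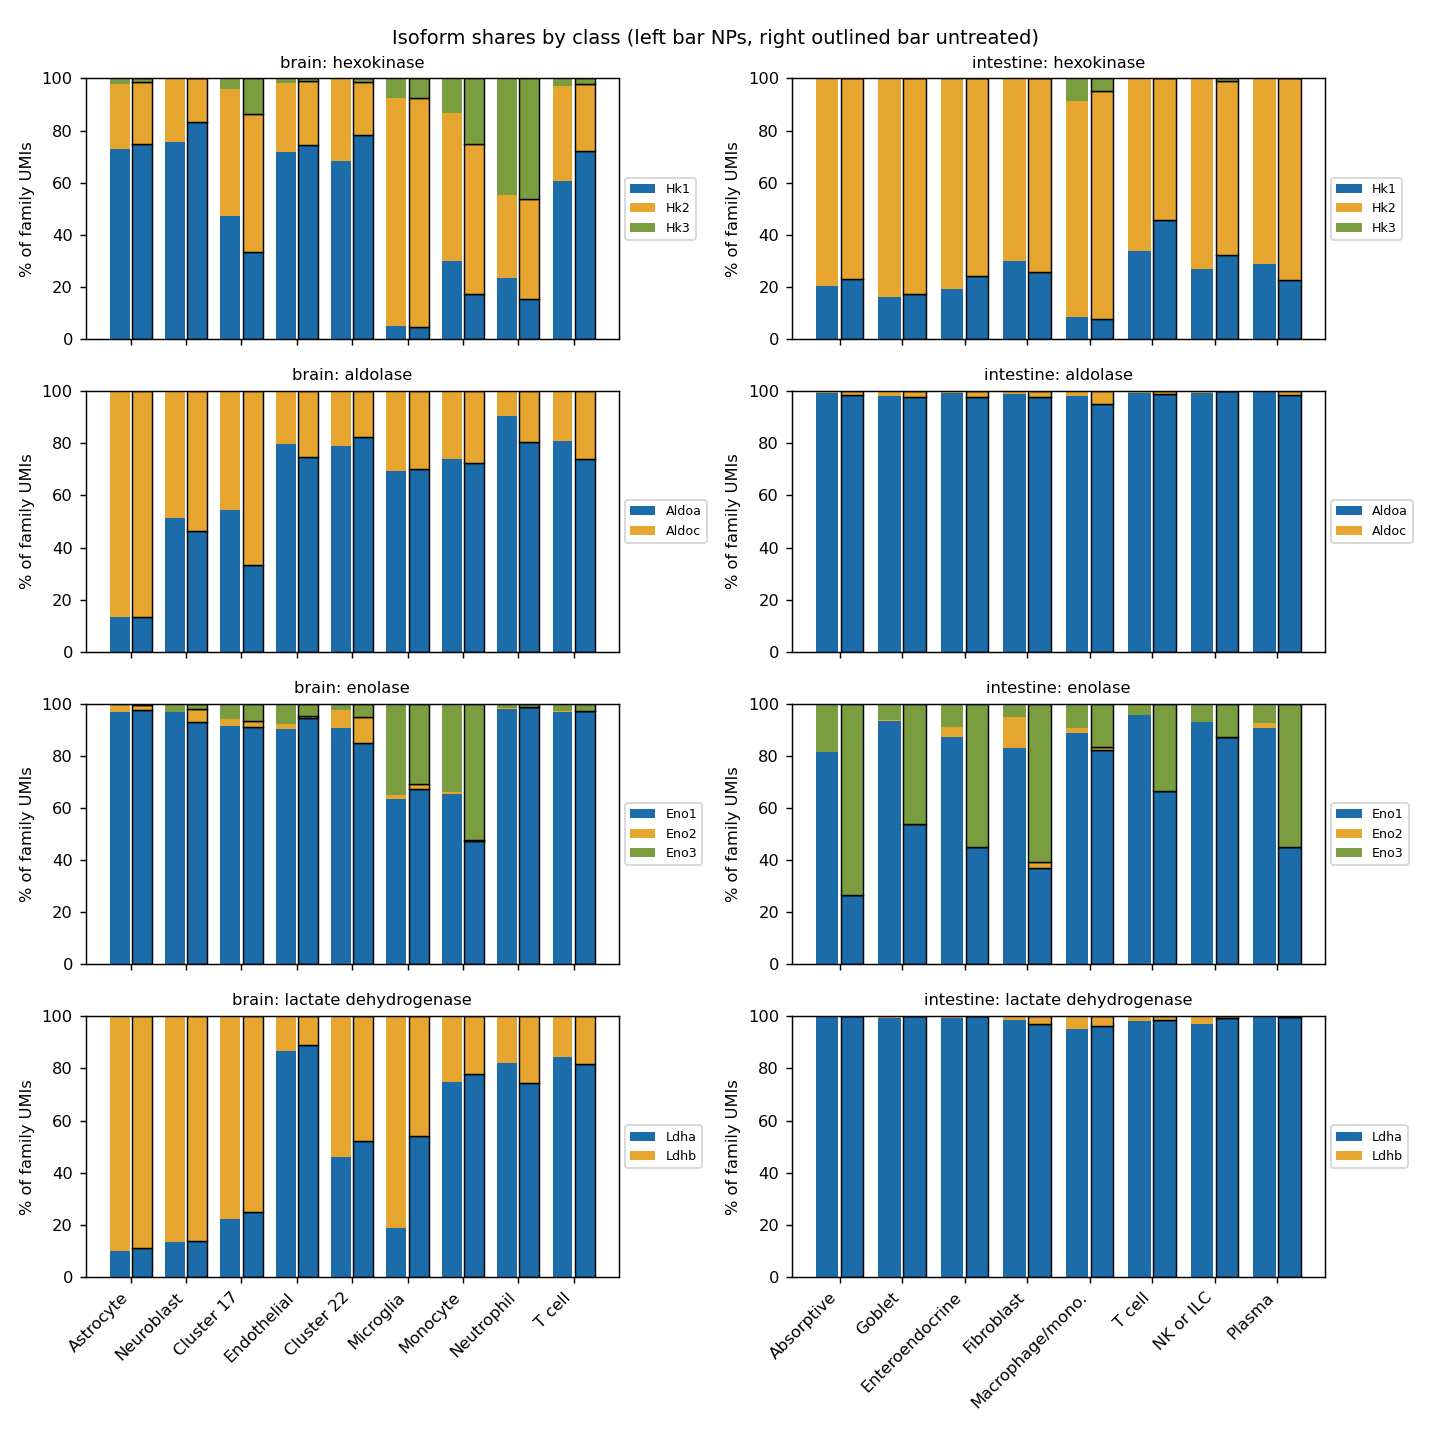
Percent of the UMIs of a gene family that each isoform gives, for hexokinase, aldolase, enolase and lactate dehydrogenase (rows) in the classes of brain (left) and intestine (right), with the NPs library as the left bar and the untreated library as the outlined right bar of each pair. In brain microglia the Ldhb share is 81.4% with NPs and 46.1% untreated, and in intestinal absorptive cells the Eno3 share is 18.7% with NPs and 73.3% untreated.

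In microglia Ldhb differed between the libraries. Its level was 375 CPM (368 to 381) with NPs and 82.5 CPM (79.2 to 86.0) untreated, from 12512 and 2316 UMIs, a ratio of 4.54 (4.34 to 4.75). Ldha had 85.9 CPM with NPs and 96.5 CPM untreated, so the Ldhb share of the pair was 81.4% (80.7 to 82.0%) with NPs and 46.1% (44.7 to 47.5%) untreated. Thinned to 1000 UMIs per cell, 28.8% of microglia held an Ldhb UMI with NPs and 7.79% untreated, while in endothelial cells, thinned in the same way, the shares were 6.13% and 5.06%. Without thinning the microglial shares were 73.3% and 32.8%, at median depths of 4705 and 4936 UMIs.

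The difference was present in each microglial cluster that held at least 50 cells in both libraries. In the 6 microglial clusters with at least 50 cells of the NPs library Ldhb lay between 313 and 421 CPM, and in the 5 such clusters of the untreated library between 70.1 and 86.7 CPM. The Ldhb ranges did not overlap, and those of Ldha, Hk2, Slc2a5, Eno3 and Pfkfb3 in the same clusters did. These members were picked, and Ldhb was listed with its library difference known, so the contrast is a description only. Clusters of the same library are not replicates, and the share of all genes without overlap was not determined. Clusters 5 and 6, led by Ccl4, Ccl3 and Atf3, genes of activated or freshly dissociated microglia, had 418 and 381 CPM with NPs and 86.7 and 70.1 CPM untreated, near the other clusters of their libraries. Astrocyte markers summed to 3.72% of their astrocyte level in NPs microglia and 3.33% in untreated microglia. Ldhb in microglia stood at 40.5% and 8.09% of its astrocyte level. The part of astrocyte RNA and of activation or dissociation in the Ldhb difference was not tested. Of 13026 genes measured in microglia, 51 had a ratio at least as high as that of Ldhb, and among the 3632 of these with at least 50 CPM in the higher library there were 9, Ldhb included. Its library difference in the brain was known when Ldhb was listed, so this place among genes is a description only.

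The other brain classes had smaller differences in both directions. Astrocytes had 926 CPM with NPs and 1020 CPM untreated, a ratio of 0.908 (0.890 to 0.926). Endothelial cells had 74.2 CPM with NPs and 55.1 CPM untreated (1.35, 1.03 to 1.76), and neuroblasts 305 CPM and 336 CPM (0.908, 0.748 to 1.10). In cluster 17 Ldhb had 280 CPM with NPs and 241 CPM untreated, and in cluster 22 it had 217 CPM and 185 CPM. T cells had 56.4 CPM with NPs and 51.1 CPM untreated, monocytes 73.7 CPM and 49.3 CPM, and neutrophils 65.3 CPM and 84.2 CPM, from 18 to 115 UMIs. The median log2 ratio over the 7 named classes was 0.14, and over all kept brain cells the level was 523 CPM with NPs and 483 CPM untreated. The order of the classes by Ldhb level therefore differed, with microglia second of the 9 classes with NPs and sixth untreated, where neutrophils, just above, overlapped in their interval.

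**Figure D3:**
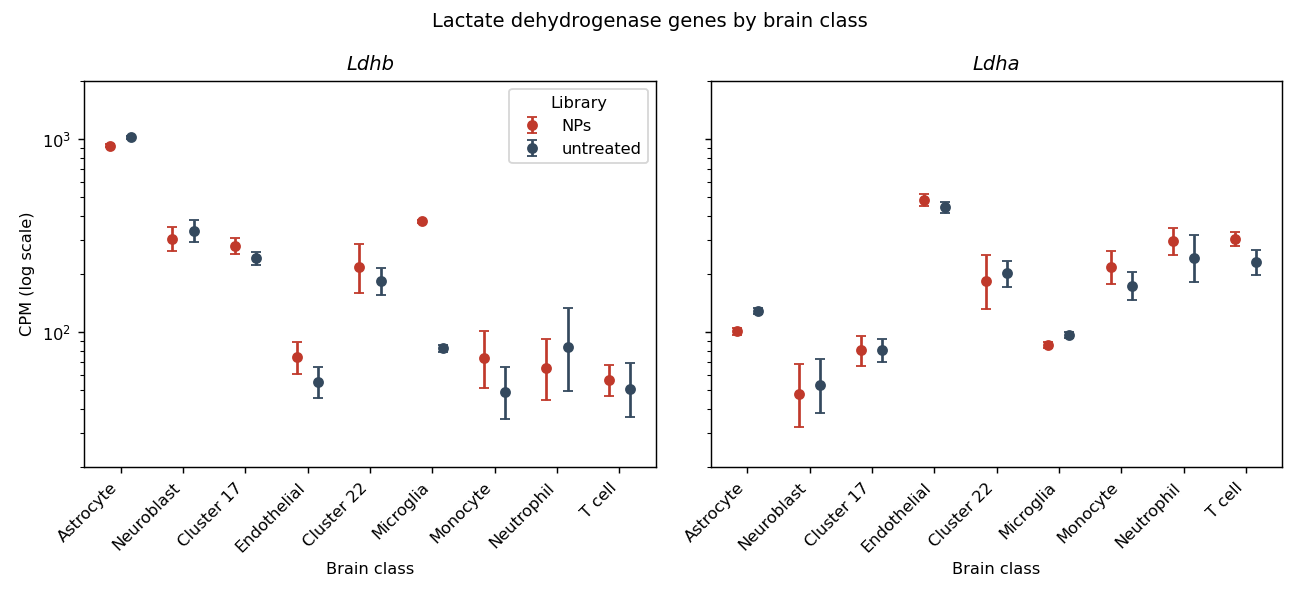
Ldhb and Ldha in the 9 brain classes in CPM on a log scale, NPs left and untreated right in each class, with exact 95% Poisson intervals that cover counting error only. In microglia the Ldhb points lie at 375 CPM with NPs and 82.5 CPM untreated, while the Ldha points lie at 85.9 CPM and 96.5 CPM.

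Ldhb (GRCm38, chromosome 6, 142490249 to 142507957, minus strand) has Golt1b on one side and Abcc9 and Cmas on the other among genes measured in microglia. There Golt1b had 34.2 CPM with NPs and 35.1 CPM untreated, and Cmas 107 CPM and 102 CPM. Among the genes within 1 Mb that were measured in microglia, the log2 ratios other than that of Ldhb lay between -0.62 (Slco1a4) and 0.71 (Abcc9). These 2 genes had 2.19 and 1.92 CPM with NPs and 3.35 and 1.18 CPM untreated, the lowest levels of the group.

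A gene was counted as measured in a class when its higher level amounted to 50 UMIs in the library with the smaller total, and as different when the libraries differed at least 1.5-fold. In small classes this leaves mostly abundant members. Shares of all genes that differed count both directions unless a direction is named. In microglia 29 members were measured, of which 1 was higher with NPs (Ldhb) and 1 lower, Slc16a3 with 11.9 CPM with NPs and 18.2 CPM untreated (log2 ratio -0.61). Of all genes measured in microglia, 7.46% differed by that fold. The median log2 ratio was -0.18 over the members and 0.03 over all measured genes.

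In astrocytes 27 members were measured and 1 differed, against 7.78% of all genes. It was Slc2a5, with 18.2 CPM with NPs and 10.7 CPM untreated, a ratio of 1.70 (1.44 to 2.01), while microglia had 353 CPM and 384 CPM; it stayed past 1.5-fold in 8 of 12 alternative settings. The summed level of 8 microglial markers in astrocytes moved with it, at 5.15% of their microglial level with NPs and 3.02% untreated, and its part in the difference was not tested. In T cells Pgam1 was higher, with 110 CPM with NPs and 71.5 CPM untreated, 1 of 13 members measured and 9.95% of all genes, and stayed so in 9 of 12 settings. In monocytes Eno3 (log2 ratio -1.34) and Aldoc (-0.65) were lower, 2 of 11 members and 11.9% of all genes; Eno3 stayed past 1.5-fold in 8 of 9 settings, all but thinning to 1000 UMIs, and Aldoc in 7 of 9, all but a mitochondrial limit of 10% and doublets kept. Astrocyte markers in monocytes moved with Aldoc, at 1.85% of their astrocyte level with NPs and 3.31% untreated, against 2.30% and 3.24% for Aldoc, and their part in it was not tested. In neutrophils Hif1a was lower at 182 CPM with NPs and 281 CPM untreated, 1 of 10 members and 23.3% of all genes, and stayed so in 8 of 12 settings.

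In cluster 17, which is led by genes of dividing and immature neural cells, 3 of 16 members were lower. Of all genes in this cluster 8.76% differed and 5.88% were lower. Aldoc had 54.8 CPM with NPs and 181 CPM untreated there, Hk2 had 23.3 CPM and 35.6 CPM, and Slc2a5, from 27 and 85 UMIs, had a log2 ratio of -0.97. Astrocyte markers in this cluster summed to 8.63% of their astrocyte level with NPs and 8.07% untreated, and microglial markers to 6.37% and 14.0% of their microglial level. The part of these in the 3 lower members was not tested. No member passed 1.5-fold among the 17 measured in endothelial cells, the 9 in neuroblasts and the 5 in cluster 22, where 6.5%, 6.66% and 16.6% of all genes did.

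In the 2 largest brain classes 7.46% of all genes in microglia and 7.78% in astrocytes differed, the background for the other genes of the pathway. Of 49 further genes of sugar transport, gluconeogenesis, glycogen, the pentose phosphate path and pyruvate use, 33 were measured in microglia and 1 differed, Emb, a partner of lactate transporters, with 1.92 CPM with NPs and 3.92 CPM untreated. In astrocytes 33 were measured and 2 differed: Slc2a4, the insulin-regulated glucose transporter, had 20.4 CPM with NPs and 7.70 CPM untreated, and Gpd1, which links glycolysis to glycerol, had 36.4 CPM and 65.9 CPM. A further list of 19 genes outside the members held known targets of hypoxia-inducible factors. It also held subunits and regulators of these factors, among them Epas1, Arnt and Vhl. Of this list, 4 of 16 measured in microglia were lower and none higher, where 4.51% of all genes were lower. These 4 (Adm, P4ha2, Ndrg1 and Epas1) lay at or under 7.63 CPM. In endothelial cells Ankrd37 was the 1 gene of this list that differed, with 132 CPM with NPs and 65.3 CPM untreated. Hif1a itself had 131 CPM with NPs and 128 CPM untreated in microglia.

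**Figure D4:**
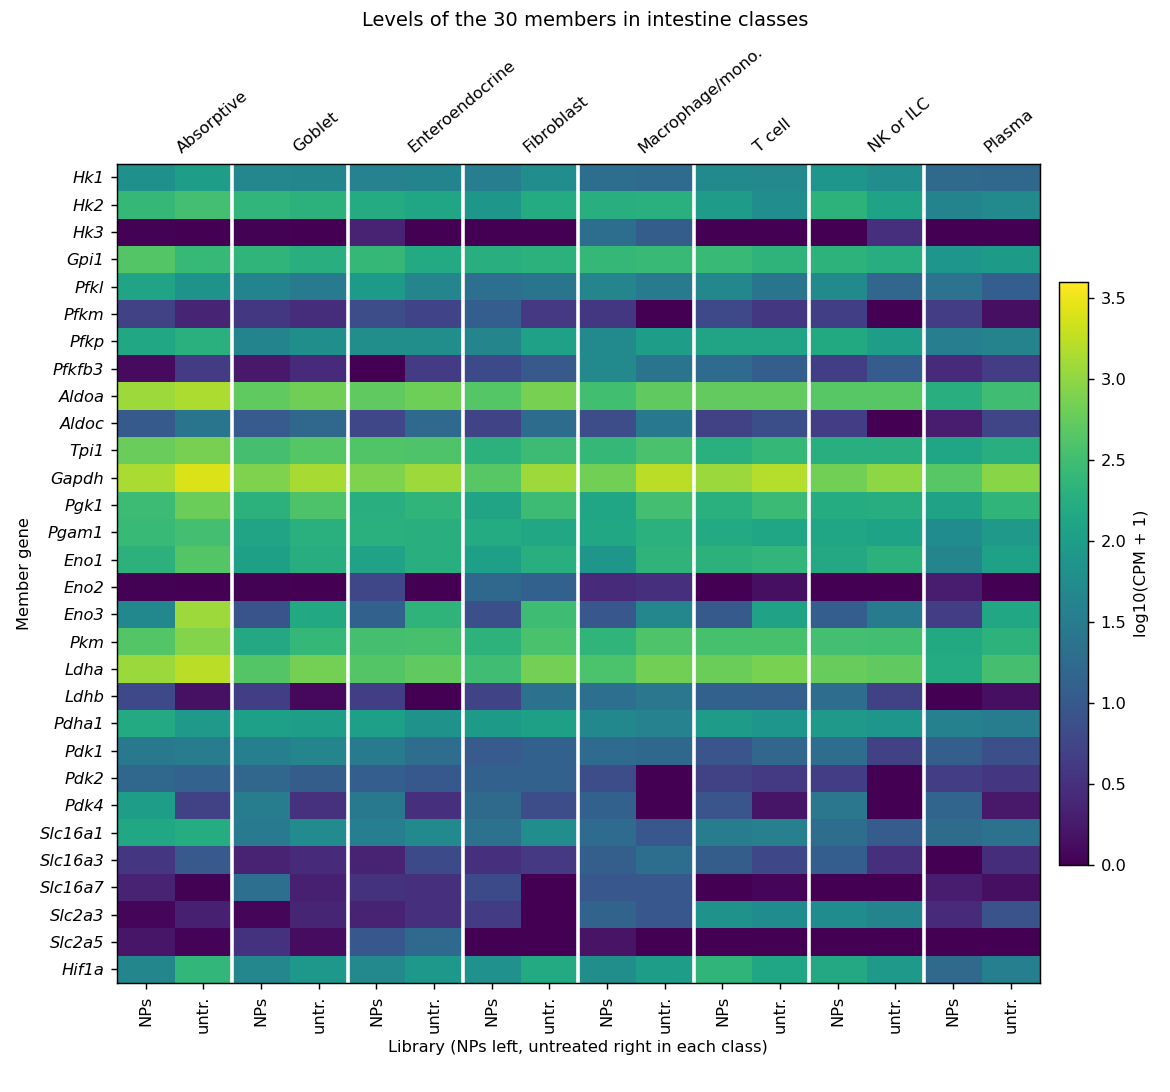
Levels of the 30 members as log10(CPM + 1) in the 8 intestinal classes, with the NPs library left and the untreated library right in each class. Aldoa, Gapdh and Ldha are high throughout, Ldhb is low throughout, and Eno3 is at 46.8 CPM with NPs and 1186 CPM untreated in absorptive epithelium.

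In the intestine 8 classes could be compared, and for hexokinase, aldolase and lactate dehydrogenase a single gene led in each of them. Ldha made up at least 95.1% of lactate dehydrogenase UMIs in each of them with NPs and at least 96.4% untreated. Aldoa made up at least 98.1% of aldolase UMIs with NPs and, in all but macrophages or monocytes, at least 97.5% untreated. Hk2 led hexokinase in all 8 classes, with 79.6% (78.9 to 80.2%) in absorptive epithelium with NPs and 76.8% (76.1 to 77.4%) untreated. The lead was narrow in untreated T cells, with 57.7 CPM of Hk2 and 48.3 CPM of Hk1. Hk2 had 161 CPM in untreated T cell cluster 21 and between 14.2 and 49.1 CPM in the other untreated T cell clusters. The leading hexokinase gene of these single clusters was not determined. Absorptive cells had the highest sum over the 17 enzyme genes, at 5412 CPM with NPs and 9144 CPM untreated, and plasma cells the lowest of the 8, at 1347 CPM with NPs and 2397 CPM untreated. Hk3, Eno2 and Slc2a5 were below the level counted as measured in every intestinal class compared. Ldhb reached 154 CPM in cluster 19 of the NPs library, which carried 5 of 6 enteric glia markers and was not found in the untreated library; it made up 33.3% (24.3 to 43.4%) of the pair there.

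Many genes differed between the intestinal libraries, members or not, so counts of members stand beside high background shares. In absorptive epithelium 25 members were measured, 6 were higher and 10 lower with NPs, and 53.8% of all genes differed. Of all genes 38.7% were higher and 15.1% lower. The median log2 ratio was -0.42 over the members and 0.38 over all measured genes. With this median of all genes set to 0, 3 members were higher and 18 lower. In goblet cells 2 of 22 members were higher and 10 lower, where 32.8% of all genes differed, 19.4% higher and 13.4% lower.

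Enolase differed in its isoform. In absorptive cells Eno3 had 46.8 CPM with NPs and 1186 CPM untreated, from 2288 and 46948 UMIs, 25.3-fold lower with NPs (24.3 to 26.4). It lay between 26.7 and 69.6 CPM in the 2 NPs clusters and between 405 and 1594 CPM in the 3 untreated clusters. The Eno3 ranges did not overlap. The ranges of Pdk4, Eno1, Hif1a, Ldhb, Pgk1 and Gapdh did not overlap either, while those of Ldha did. Non-overlap was thus not particular to Eno3, the clusters are not replicates, and the share of all genes without overlap was not determined. Eno1 had 204 CPM with NPs and 432 CPM untreated, so that Eno3 gave 18.7% (18.0 to 19.4%) of enolase UMIs with NPs and 73.3% (72.9 to 73.6%) untreated. Eno3 was also among the leading genes of untreated clusters 14 and 15. Of 12676 genes measured in this class, 220 had a ratio as low or lower.

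Eno3 was lower with NPs in each of the 6 intestinal classes in which it was measured. It had 7.51 CPM with NPs and 150 CPM untreated in goblet cells, 12.1 CPM and 221 CPM in enteroendocrine cells, 6.60 CPM and 299 CPM in fibroblasts, 9.29 CPM and 119 CPM in T cells, and 3.49 CPM and 140 CPM in plasma cells. For the other compared classes Eno3 and the summed absorptive markers are given relative to their levels in absorptive cells. Untreated goblet cells held Eno3 at 12.7% of its absorptive level and the absorptive markers at 16.5% of theirs. In untreated enteroendocrine cells these values were 18.6% and 16.7%. In untreated fibroblasts Eno3 stood at 25.2% of its absorptive level and 8 absorptive markers summed to 26.4% of theirs. In untreated plasma cells these values were 11.8% and 8.69%, in T cells 10.1% and 6.51%, in macrophages or monocytes 3.78% and 2.99%, and in NK cells or ILCs 2.59% and 1.74%. Among T cells Eno3 was high in untreated cluster 21, at 447 CPM, and lay between 31.3 and 56.0 CPM in the other 4 untreated clusters. The part of RNA from absorptive cells in these values was not tested.

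**Figure D5:**
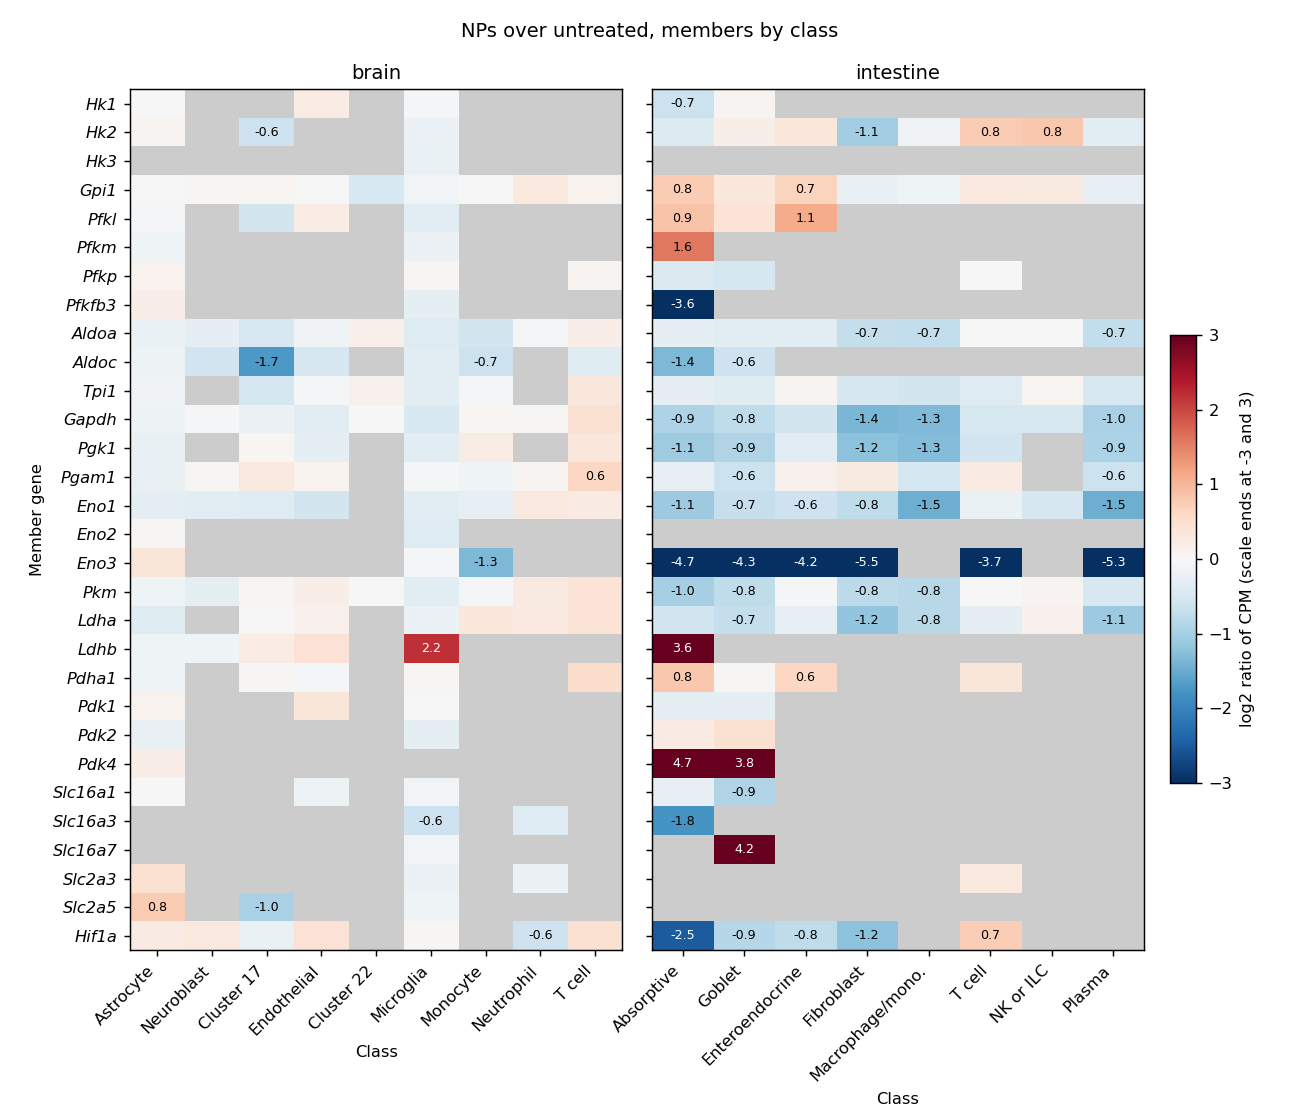
Log2 ratio of CPM, NPs over untreated, for the 30 members (rows) in the classes of brain (left) and intestine (right). Values are printed where they pass 1.5-fold, the colour scale ends at -3 and 3, and grey marks members that were not measured in a class. In the brain the strongest colour is Ldhb in microglia at 2.18, and in the intestine Eno3 is lower in the 6 classes where it was measured.

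Pdk4 was higher with NPs in absorptive and goblet cells, the 2 classes in which it was measured. Pdk4, the kinase that spares glucose when fat is burned, had 103 CPM with NPs and 4.02 CPM untreated in absorptive cells, a ratio of 25.6 (21.9 to 30.2). In goblet cells it had 32.2 CPM with NPs and 2.29 CPM untreated, a ratio of 14.1 (9.34 to 22.3). Absorptive markers in goblet cells summed to 44.9% of their absorptive level with NPs and 16.5% untreated. Their part in the Pdk4 level of goblet cells was not tested. Pdk4 gave 70.9% (69.8 to 72.0%) of kinase UMIs in absorptive cells with NPs and 8.08% (6.92 to 9.38%) untreated, where Pdk1 gave 18.7% and 66.4%. Pdha1, a subunit of the pyruvate dehydrogenase that these kinases inhibit, had 156 CPM with NPs and 88.6 CPM untreated in absorptive cells, and 105 CPM and 102 CPM in goblet cells. Pdk1 and Pdk2 did not pass 1.5-fold in either class. In the 5 compared classes outside the epithelium Pdk4 was at or under 25.7 CPM with NPs and 5.98 CPM untreated, from at most 22 and 8 UMIs a class, and too low to be counted as measured. Its level was higher with NPs in each of these 5 classes too. In T cells it had 7.97 CPM with NPs and 0.617 CPM untreated, from 6 and 8 UMIs.

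In absorptive cells members of the early steps differed in both directions. Gpi1, the isomerase, had 439 CPM with NPs and 260 CPM untreated, Pfkl 125 CPM and 68.6 CPM, and Pfkm 4.13 CPM and 1.39 CPM, which made them higher by 1.69, 1.82 and 2.97-fold. Hk1 had 64.1 CPM with NPs and 101 CPM untreated, while Hk2, at 250.3 CPM and 334 CPM, and Pfkp, at 145 CPM and 195 CPM, did not pass 1.5-fold. Pfkfb3, at 0.266 CPM with NPs and 3.23 CPM untreated from 13 and 128 UMIs, was 12.2-fold lower (6.86 to 23.5). Of the later steps, Gapdh, Pgk1, Eno1, Eno3 and Pkm were lower and Pgam1, at 279 CPM with NPs and 330.3 CPM untreated, did not pass. Gapdh had 1369 CPM with NPs and 2589 CPM untreated, Pgk1, which makes the first ATP of the path, 289 CPM and 608 CPM, and Pkm 429 CPM and 861 CPM. Aldoc was lower as well, at 9.37 CPM with NPs and 24.0 CPM untreated.

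Lactate genes of the epithelium differed in kind. Ldha had 1131 CPM with NPs and 1680 CPM untreated in absorptive cells, short of 1.5-fold, and 433 CPM and 710 CPM in goblet cells. Ldhb had 5.20 CPM with NPs and 0.430 CPM untreated in absorptive cells, a ratio of 12.1 (7.41 to 21.1) from 254 and 17 UMIs, and gave 0.457% of the pair with NPs. Slc16a1 had 28.8 CPM with NPs and 53.5 CPM untreated in goblet cells, a call kept in 9 of 12 settings, and 142 CPM and 169 CPM in absorptive cells. Slc16a7, the monocarboxylate transporter MCT2, had 19.8 CPM with NPs and 1.09 CPM untreated in goblet cells, a ratio of 18.1 (10.1 to 36.5), and made up 39.8% (37.2 to 42.4%) of the 3 transporters with NPs and 1.94% (0.972 to 3.44%) untreated. Slc16a3 had 2.74 CPM with NPs and 9.27 CPM untreated in absorptive cells.

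Hif1a was lower in epithelium and fibroblasts and, in most settings, higher in T cells with NPs. It had 43.3 CPM with NPs and 243 CPM untreated in absorptive cells, 5.60-fold lower (5.34 to 5.87), and 46.1 CPM and 83.2 CPM in goblet cells. In fibroblasts it had 66.0 CPM with NPs and 155 CPM untreated, 2.35-fold lower (1.59 to 3.47), past 1.5-fold in 9 of 9 settings. In T cells it had 223 CPM with NPs and 134 CPM untreated, a ratio of 1.66 (1.41 to 1.95), which was lost, at a log2 ratio of 0.098, when each library was clustered on its own. The T cells came from 5 clusters in different proportions, cluster 11 holding 116 of 258 cells with NPs and 360 of 3753 untreated, and within cluster 11 Hif1a had 335 CPM with NPs and 487 CPM untreated. Cluster 20, which is led by Ccl5 and Gzmb, had 183 CPM with NPs and 100 CPM untreated. The T cell direction thus differed between these clusters.

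Of the 19 targets, subunits and regulators of hypoxia-inducible factors, 17 were measured in absorptive cells, 2 higher and 4 lower. Of all genes there, 38.7% were higher and 15.1% lower. Bnip3 had 6.40 CPM with NPs and 42.2 CPM untreated, Egln3, an enzyme that marks Hif1a for destruction, 8.90 CPM and 56.6 CPM, and P4ha1 5.52 CPM and 14.5 CPM. Ndrg1 was higher, with 142 CPM with NPs and 33.1 CPM untreated. Of the 49 further pathway genes 38 were measured there, 13 higher and 7 lower, a share near that of all genes. Emb (0.430 CPM with NPs and 6.27 CPM untreated), Fbp1 (3.27 and 0.227 CPM), Hkdc1 (31.8 and 2.22 CPM) and Pcx (9.41 and 63.2 CPM) had the largest log2 ratios in size. Fbp1 and Pcx belong to the reverse path that makes glucose, and Hkdc1 is a further hexokinase. Pck1, another gene of that path, had 106 CPM with NPs and 35.3 CPM untreated.

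Other intestinal classes had fewer members at a measurable level. In fibroblasts 9 of 12 members were lower and none higher, where 50.6% of all genes differed and 24.4% were lower. Gapdh had 456 CPM with NPs and 1181 CPM untreated there, and Ldha 315 CPM and 711 CPM. Gapdh lost the call with doublets kept, at a log2 ratio of -0.51, and Ldha with doublets kept and at Leiden resolution 2, in 2 of 9 settings. Macrophages or monocytes had 6 of 10 members lower and none higher, where 47.2% of all genes differed and 25.2% were lower. Eno1 was at 80.3 CPM with NPs and 220 CPM untreated, Gapdh at 670 CPM and 1669 CPM, and Pgk1 at 134 CPM and 329 CPM. Plasma cells had 7 of 11 lower and none higher, where 37.7% of all genes differed and 27.1% were lower. Their Ldha level was 161 CPM with NPs and 346 CPM untreated. The direction of Ldha, like that of Aldoa, turned round under a finer clustering, where Gapdh and Pgk1 also lost their calls. These are classes whose median depth was higher with NPs. In fibroblasts the absorptive markers summed to 345 CPM with NPs and 1961 CPM untreated, in macrophages or monocytes to 469 CPM and 222 CPM, and in plasma cells to 226 CPM and 646 CPM; their part in the lower enzyme levels was not tested.

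T cells had 2 of 15 members higher, Hk2 and Hif1a, and 1 lower, Eno3, against 23.9% of all genes. Of all genes 17.6% were higher and 6.33% lower. Hk2 had 98.3 CPM with NPs and 57.7 CPM untreated, a ratio of 1.70 (1.32 to 2.16), and stayed past 1.5-fold in 9 of 12 settings, all but a minimum of 1000 UMIs, doublets kept and thinning. In NK cells or ILCs Hk2 was the 1 of 8 members that differed, at 209 CPM with NPs and 119 CPM untreated from 57 and 58 UMIs, and 30.0% of all genes differed; it stayed past 1.5-fold in 6 of 10 settings and turned round with a mitochondrial limit of 10%. Enteroendocrine cells had 3 of 14 members higher, Pfkl, Gpi1 and Pdha1, and 3 lower, Eno3, Hif1a and Eno1, against 35.9% of all genes. Of all genes in enteroendocrine cells 26.4% were higher and 9.57% lower. Their Pfkl level was 91.9 CPM with NPs and 42.3 CPM untreated. Of 12 settings, Eno1 stayed past 1.5-fold in 5, Pdha1 in 9, and Pfkl and Gpi1 in 10 each. The directions of Pfkl, Pdha1 and Eno1 each turned round under 1 setting.

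Near-identical copies took few UMIs. The second gene row named Aldoa held at most 9 UMIs per library among kept cells, and Eno1b, a copy of Eno1, held 170 and 225 UMIs in the NPs and 183 and 342 UMIs in the untreated libraries of brain and intestine. How reads shared between a gene and its copies were counted is not given in the sources used here, so the levels of Aldoa, Gapdh, Eno1, Pgk1, Pgam1 and Ldha are uncertain to that extent.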

How the data were processed

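Single cells of mouse brain and intestine were measured in 4 libraries, 1 for each tissue and treatment. Per the labels' protocols, tissue was digested with enzymes, and both erythrocytes and dying cells were depleted. The deposited values are raw UMI counts per gene and cell, made with Cell Ranger 5.0.1 on GRCm38 per the submitters' processing notes; whether counting used strand is not given in the sources used here. No step after counting is recorded.

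The filters on barcodes were a minimum of 500 UMIs, a minimum of 200 genes and a mitochondrial share of no more than 20%. Scrublet doublets were removed; in the intestine, where its own limit marked under 0.5% of cells, a score of 0.25 was used. This left 11944 cells with NPs and 11325 untreated in the brain and 10548 and 16858 in the intestine. Each tissue was clustered on 2000 variable genes without the members, 30 components and 15 neighbours (Leiden, resolution 1; scanpy 1.11.5, Python 3.11.15). Clusters were named from marker lists; rules for ties between lists and for cycling cells were added after the clusters were seen.

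UMI counts were summed per class and library, and CPM are UMIs per 1000000 of that sum. Intervals are exact Poisson (levels), exact Clopper-Pearson (shares) and conditional binomial (ratios), at 95%; they cover counting error only (scipy 1.17.1). The ratio computation was tested on simulated data. Classes with at least 50 cells in both libraries were compared. Up to 6 members past 1.5-fold were named a class, by size of log2 ratio, with Ldhb in every brain class; further values describe levels and isoforms, and those of single clusters were chosen after they were seen. Members and lists were chosen with earlier results of these data known. The closing section gives the effect of 14 alternatives.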

Additional observations from a re-analysis of the deposited data

Results flagged for a closer look

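Members that passed 1.5-fold in opposite directions in 2 classes were looked at again; with 1 library per group these differences between classes were not tested. Hk2 had a log2 ratio of NPs over untreated of 0.82 in intestinal NK cells or ILCs and -1.05 in intestinal fibroblasts. Pgam1 had a log2 ratio of 0.62 in brain T cells and -0.65 in intestinal plasma cells, in tissues that also differ in the time on NPs. Hif1a had a log2 ratio of 0.73 in intestinal T cells, lost when each library was clustered on its own, and -2.49 in absorptive epithelium.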

How the results depend on the processing

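No paired analysis was possible because there is 1 library per group, and no replicate could be left out. The median log2 ratio of Ldhb over the 7 named brain classes, 0.14, lay between -0.13 and 0.18 under the alternatives. The count of members past 1.5-fold in microglia, 2, was 2 or 3, and 1 with the call set at 2-fold. The count in absorptive epithelium, 16, lay between 11 and 21. Of 532 alternative values for the 47 ratios past 1.5-fold, 481 were past it too and 7 reversed. Ldhb in endothelial cells, not past it, passed once, at 0.68 without a mitochondrial limit. The log2 ratio of Eno3 in brain monocytes was 0.019 and that of Pdha1 in enteroendocrine cells -0.020 with cells thinned to 1000 UMIs. Hk2 in NK cells or ILCs was -0.19 with a mitochondrial limit of 10%. Pfkl in enteroendocrine cells was -0.033 as a mean over cells, and Eno1 there 0.056 with each library clustered on its own. In plasma cells Ldha was 0.029 and Aldoa 0.17 at Leiden resolution 2. The causes were not tested. Ldhb in microglia stayed between 2.04 and 2.20, Eno3 in absorptive cells between -5.04 and -4.32 and Pdk4 there between 4.30 and 5.02. The leading isoform was kept in 663 of 671 values. Clusters without a name had no alternatives, and classes that fell under 50 cells gave no value. Depth limits the small classes, where levels rest on few UMIs.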
